A study of Mus musculus with 20 samples.

Results

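The miRNAs described here are the later-annotated mouse miRNAs whose miRBase number lies between 1000 and 2999. They were selected by name, from the probes of a miRNA array whose name begins with mmu-miR- and carries such a number. The array held 121 such probes. The 6 probes of miR-1188, miR-1193 and miR-1197 were left out by the choice of members, and 9 probes with a negative quality flag on every spot of every array were dropped, among them miR-1930, miR-1901, miR-1942 and both strands of miR-1251. This left 106 members of the 928 mouse miRNAs that passed the same flag filter. The rule itself uses names and flags and no measured difference, but it was set with earlier results of these data known.

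The study asked how miRNAs change while the left ventricle thickens under pressure overload. Male C57BL/6J mice, 8 weeks old and weighing 20 to 25 g, were operated by transverse aortic banding (TAB), which narrows the aorta and raises the load on the left ventricle, or by a sham operation without the narrowing. Left ventricles were taken 3, 5, 7, 14 or 28 days later, and total RNA was labelled with Cy5 and hybridized to 20 one-colour Mouse & Rat miRNA OneArray slides, 2 for each surgery and day. The titles of the TAB day 14 arrays give 14 days and their condition label gives 15, and the title was followed. Repeated arrays are technical replicates according to the methods, and the number of hearts behind an array is not stated, so the 2 arrays were averaged to 1 sample and each surgery had 5 samples, 1 per day. The spread between samples of 1 surgery therefore holds the time course as well as the variation between hearts.

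MiRNAs are short RNAs that guide Argonaute proteins to messenger RNAs, mainly through the seed at bases 2 to 8, and lower the output of the messages they bind. Each is cut from a hairpin that can release a mature strand from either arm, named 5p and 3p, or marked with an asterisk for the less abundant strand in older names. Most miRNAs with numbers above 1000 were found by deep sequencing after the abundant, conserved families had been named, and several come from introns, tRNA genes or other small RNA genes rather than from miRNA genes of their own. The classical heart muscle miRNAs, such as miR-1a and miR-133a, all carry lower numbers.

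The mature sequences of the members on which the results turn are given first, 5′ to 3′, with the seed in capitals. They were read from the RefSeq table of GRCm38.p6, which held an exact name for 57 of the 106 members, 21 of them among the members lowered below. The first 6 showed the largest falls among members with a RefSeq entry, miR-1843b-5p differed from its own opposite arm, and miR-2861 was higher in TAB.
miR-1896: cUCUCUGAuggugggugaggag
miR-1894-5p: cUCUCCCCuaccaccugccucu
miR-1187: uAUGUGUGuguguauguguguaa
miR-1952: uCUCCACCcuccuucug
miR-1192: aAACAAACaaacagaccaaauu
miR-1198-5p: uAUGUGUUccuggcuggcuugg
miR-1843b-5p: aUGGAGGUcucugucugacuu
miR-2861: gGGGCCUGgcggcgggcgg

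miR-1896 lies at chr13:21445209-21445230 on the plus strand, within the spans of the zinc finger gene Zscan26 and the long non-coding gene 4930470G03Rik. miR-1894-5p lies at chr17:35917899-35917920 (plus strand) within Ppp1r10, a regulatory subunit gene of protein phosphatase 1. miR-1192 lies at chr19:23149450-23149471 (plus strand) within the transcription factor gene Klf9, and miR-1198-5p at chrX:7807142-7807163 (plus strand) within Gripap1. miR-1843b-5p, at chr1:159340362-159340382 on the plus strand, lies within the ubiquitin ligase gene Cop1 and the small Cajal body RNA Scarna3a. miR-1187 (chr5:82798964-82798986, minus strand), miR-1952 (chr2:138819943-138819959, plus strand) and miR-2861 (chr2:32712819-32712837, minus strand) lie within no annotated gene span. Of the 57 matched members, 45 lie within the span of a gene, and no pair of members shares a seed. Host gene spans are RefSeq annotations and no host transcript was measured here.

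Levels are log2 of the quantile-normalized intensity, and an array was taken to have found a miRNA where no negative flag stood on 2 or more of its 3 spots. The members' mean levels ran from 6.13 to 13.68 with a median of 7.21, against a median of 6.84 over all 928 miRNAs. A total of 62 members were found on all 20 arrays, which is 58.5% of them against 47.0% of all miRNAs, 38 on some arrays and 6 on none. The brightest were miR-1195 (mean level 13.68), miR-1902 (13.61) and miR-2137 (13.50), and no spot of a member reached the scanner ceiling. An intensity on such an array depends on the probe as well as on the RNA, so the order of these levels is not an order of abundance. The SD between the 2 arrays of a sample had a median of 0.100 over the members and 0.135 over the members found on all arrays.

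The brightest members did not separate the surgeries alike. miR-1195 had levels of 13.45, 13.40, 13.45, 13.97 and 14.26 in sham on days 3, 5, 7, 14 and 28, and 13.74, 13.79, 13.40, 13.68 and 13.68 in TAB. Its groups overlapped and the difference of -0.05 ± 0.15 (SE) did not pass the test (limma adjusted p = 0.829). miR-2137 had levels of 13.36, 13.91, 13.32, 13.24 and 13.40 in sham and 13.54, 13.70, 13.45, 13.54 and 13.54 in TAB, again with overlap (difference 0.11 ± 0.08, limma adjusted p = 0.313). miR-1902, within the kinase gene Hipk3, was lower in TAB on every day, with a difference of -0.29 ± 0.07 (limma adjusted p = 0.0234), with levels of 13.70, 13.91, 13.87, 13.37 and 13.91 in sham and 13.45, 13.54, 13.73, 13.24 and 13.36 in TAB. Its call was lost without day 3, day 5 or replicate 2, with the 75th percentile of each array or the deposited processed intensities, and with no day term, and its adjusted p ran from 0.000186 to 0.184 over all alternatives.

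With quantile normalization over all arrays, more members were lowered in TAB than raised. Over the 5 days, 39 of the 106 members (36.8%) were lower and 3 (2.83%) were higher at an adjusted p below 0.05 in limma with day as a block, while over all 928 miRNAs 21.8% were lower and 19.3% were higher. The median TAB minus sham difference was -0.11 for the members and -0.02 (log2) for all miRNAs, and 73 of the 106 members lay below 0, against 494 of all 928 miRNAs. A total of 40 members (37.7%, against 23.5% of all miRNAs) were lower in TAB on all 5 days and 6 (5.66%, against 22.4%) were higher. Every TAB sample lay below every sham sample for 29 members (27.4%, against 16.2% of all miRNAs), and above it for 4 (3.77%, against 15.9%). Of the 39 lowered members, 37 were lower on all 5 days, 33 were found on all 10 sham arrays and 28 on all 20 arrays. Falls were mostly small, with a median of -0.39, and 8 reached 1.5-fold.

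**Figure D1:**
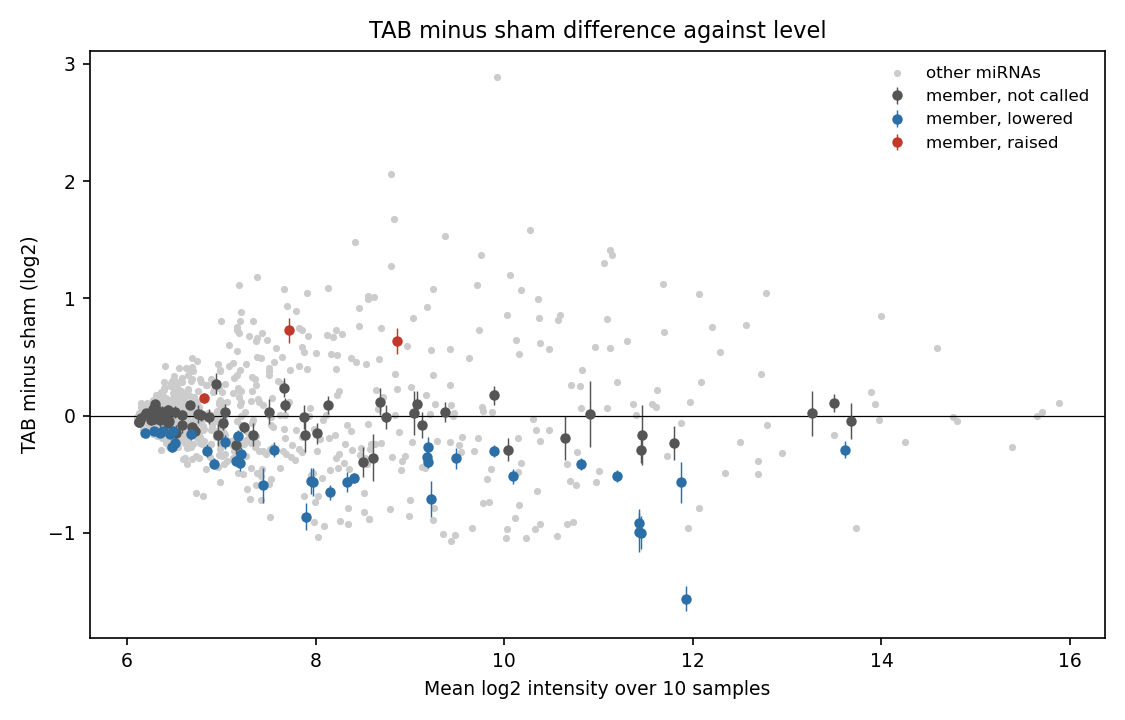
TAB minus sham difference (log2, vertical axis) against the mean log2 intensity over 10 samples (horizontal axis) for the 928 miRNAs tested. Coloured points are the 106 members (39 lowered, 3 raised) with bars of 1 SE from limma, and grey points are the other miRNAs. The lowered members reach down to -1.56 and the highest raised member stands at 0.73.

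This count depends on how the arrays were scaled to each other. TAB arrays were dimmer than sham arrays: the raw intensity at the 75th percentile ran from 180 to 288 on TAB and from 303 to 444 on sham arrays, and the members' median raw intensity was 107 to 138 on TAB and 168 to 201 on sham arrays, while empty spots stood at 65 to 74 on both. With every array scaled to the same 75th percentile, 44 members were raised (41.5%, against 63.9% of all miRNAs) and 24 lowered (22.6%, against 11.9%). The median over all miRNAs moved from -0.02 to 0.40. Without scaling, 0 members were raised (against 2.91% of all miRNAs) and 82 lowered (77.4%, against 53.9%), with a median over all miRNAs of -0.25. All 39 lowered members were also lowered without scaling, whereas 21 of them were lowered and 6 raised with the 75th percentile. Relative to the median of all miRNAs, the members' median was lower under each of the 5 scalings: the members' median minus that of all miRNAs was -0.10 with quantile normalization over all arrays and between -0.28 and -0.26 with the other 4. The 5 are not independent: the 75th percentile shifts all miRNAs of an array alike, so its gap of -0.272 equals that without scaling by construction. The members were also brighter (median level 7.21, against 6.84 over all miRNAs), and differences are compressed near background. The part of this in the gap was not tested. Whether TAB samples held less miRNA or were labelled less brightly cannot be told apart from these values.

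**Figure D2:**
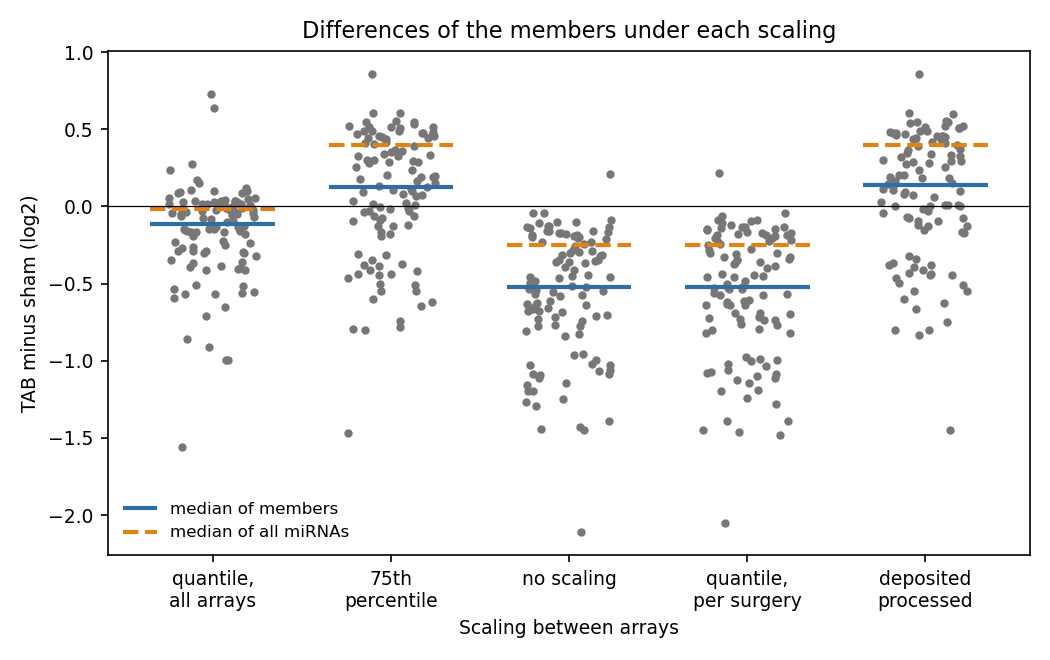
TAB minus sham difference (log2, vertical axis) of each of the 106 members under 5 ways of scaling the arrays (horizontal axis). Each point is a member, the solid line is the members' median and the dashed line the median of all 928 miRNAs. The solid line lies under the dashed line in each column, from -0.11 under -0.02 with quantile normalization over all arrays to 0.14 under 0.40 in the deposited processed values.

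The fall of miR-1896 was the largest among the members. Its level was 12.77, 12.60, 12.99, 12.26 and 12.91 in sham on days 3, 5, 7, 14 and 28, and 11.26, 11.15, 10.96, 10.96 and 11.40 in TAB. The highest TAB sample lay 0.85 below the lowest sham sample, and miR-1896 had the lowest ratio of all members on each of the 5 days, from -1.30 on day 14 to -2.04 on day 7. The difference was -1.56 ± 0.11, a level 2.95-fold higher in sham (limma adjusted p = 0.000949). It held in every alternative, with differences from -2.11 to -1.44 and adjusted p from 6.13e-10 to 0.00695.

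miR-1894-5p had levels of 12.26, 12.04, 12.41, 11.38 and 11.67 in sham and 10.96, 10.82, 11.23, 11.02 and 10.75 in TAB. The groups did not overlap, but sham day 14 differed by -0.71 from the mean of the other sham samples, and the ratio shrank from between -1.30 and -1.18 on days 3 to 7 to -0.37 on day 14. The mean difference was -0.998 ± 0.14 (limma adjusted p = 0.00488). miR-1187, a miRNA built mostly of alternating U and G, had levels of 11.98, 11.67, 12.44, 11.77 and 11.77 in sham and 10.83, 10.99, 10.87, 11.35 and 10.63 in TAB. Its TAB samples all lay under its sham samples, with day 14 the closest, and the difference was -0.99 ± 0.17 (limma adjusted p = 0.00762).

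miR-1952 was at 12.21, 12.23, 12.07, 11.31 and 11.63 in sham and at 11.15, 10.99, 11.19, 10.91 and 10.64 in TAB, without overlap. Its difference of -0.91 ± 0.12 (limma adjusted p = 0.00395) came with the same low sham sample of day 14, which differed by -0.72 from the mean of the other sham samples. miR-1192 was dimmer, at 8.68, 8.51, 8.27, 8.26 and 7.96 in sham and 7.40, 7.46, 7.58, 7.60 and 7.34 in TAB, and differed by -0.86 ± 0.11 (limma adjusted p = 0.00391). Its sham levels were highest on day 3 and lowest on day 28, whereas its TAB levels had an SD of 0.11 (n = 5). miR-1192 shares its seed, AACAAAC, with miR-495-3p and miR-12200-5p and with no other member. miR-1186 was at 8.47, 8.36, 8.51, 8.45 and 8.60 in sham and 7.76, 7.85, 7.88, 7.91 and 7.72 in TAB. The 2 groups were tight and far apart, with SDs of 0.09 and 0.08 (n = 5 each) and a difference of -0.65 ± 0.06 (limma adjusted p = 0.00201). miR-1894-5p, miR-1187, miR-1952, miR-1192 and miR-1186 were lowered under every alternative tried, each scaling included, with limma adjusted p up to 0.0307.

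miR-1198-5p and miR-1930* completed the 8 largest falls. miR-1198-5p was at 9.87, 9.79, 9.47, 9.16 and 9.59 in sham and 8.79, 8.75, 9.35, 8.70 and 8.73 in TAB. Its TAB day 7 sample lay within the sham range, and the difference was -0.71 ± 0.15 (limma adjusted p = 0.0158). The call was lost without day 3, day 5 or day 28, with adjusted p up to 0.0555. miR-1930* differed by -0.59 ± 0.15 (limma adjusted p = 0.0260), and its call was lost without day 7, day 28 or replicate 2, with adjusted p up to 0.0856. The probe of the opposite strand, miR-1930, was one of the 9 with negative flags throughout.

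miR-1966 fell evenly, with levels of 8.59, 8.64, 8.66, 8.75 and 8.74 in sham and 7.94, 8.15, 8.17, 8.24 and 8.21 in TAB. The difference was -0.53 ± 0.04 (limma adjusted p = 0.00105) and was called under every alternative. miR-1224 was bright but less even, at 12.07, 12.34, 12.08, 11.76 and 12.55 in sham and 11.60, 11.68, 11.18, 11.95 and 11.55 in TAB. It was lower on 4 days and higher on day 14, by 0.19, and the difference of -0.57 ± 0.18 was near the threshold (limma adjusted p = 0.0465). The call was lost without day 3, 5, 7 or 28, without replicate 1 and without the flag filter, with adjusted p up to 0.139, and without day 14 the difference was -0.76 (limma adjusted p = 0.00469).

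**Figure D3:**
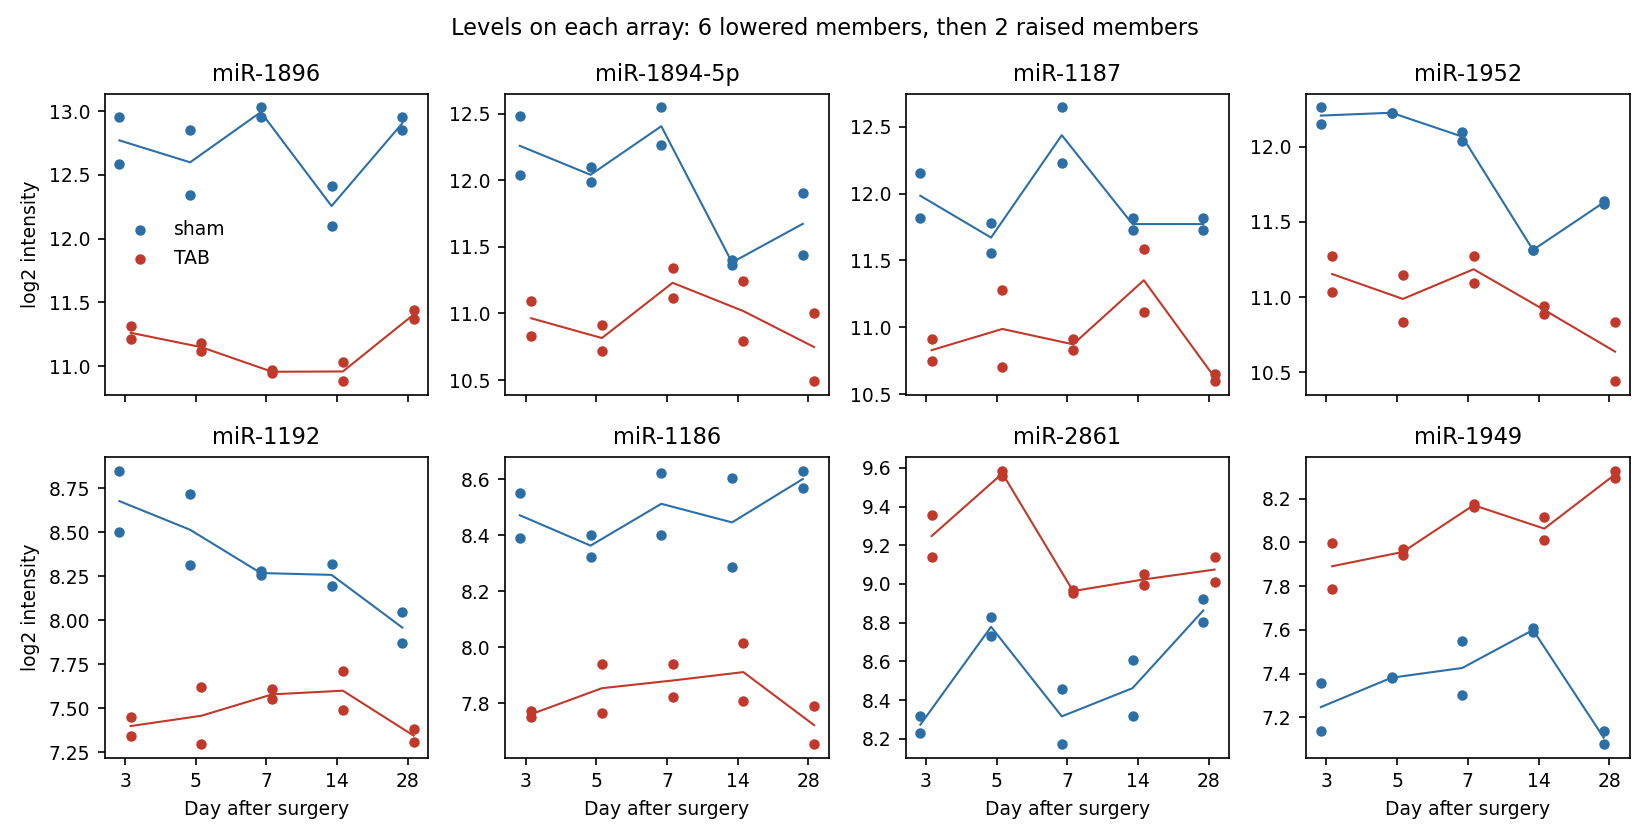
Log2 intensity (vertical axis, own range in each panel) of 6 lowered and 2 raised members by day after surgery (horizontal axis, days evenly spaced). Points are single arrays, 2 per surgery and day, and lines join the means of the 2 arrays. The sham and TAB lines do not cross in any panel, and for miR-1896 every TAB array lies below every sham array.

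The 3 raised members were found on all 20 arrays. miR-1949 was at 7.25, 7.38, 7.43, 7.60 and 7.11 in sham and 7.89, 7.96, 8.17, 8.06 and 8.31 in TAB, without overlap, and rose by 0.73 ± 0.11 (1.65-fold, limma adjusted p = 0.00544). miR-2861, described in mouse bone as a promoter of osteoblast differentiation, was at 8.27, 8.78, 8.32, 8.46 and 8.86 in sham and 9.25, 9.57, 8.96, 9.02 and 9.07 in TAB. It rose by 0.64 ± 0.11 (1.56-fold, limma adjusted p = 0.00786), with the ratio falling from 0.97 on day 3 to 0.21 on day 28. miR-1893 rose by 0.15 ± 0.04 (limma adjusted p = 0.0294), and its call was lost without day 3, 5, 14 or 28, without replicate 1 and among miRNAs found on at least 10 arrays, with adjusted p up to 0.166. Without scaling between arrays, miR-1949 stood 0.21 higher in TAB without passing the test, miR-2861 stood at -0.04 and miR-1893 at -0.19, so the direction of miR-2861 and miR-1893 depended on the scaling, while miR-1949 was higher in TAB under each of the 5 scalings.

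Members were also grouped by their origin, beside a share of 41.1% of all 928 miRNAs and 39.6% of all 106 members called in either direction. The hairpins of miR-1264, miR-1298 and miR-1912 lie in introns of the serotonin receptor gene Htr2c, which is best known from brain. Of their 5 members, 4 were found on at most 1 array and miR-1298 was found on 18, at a mean level of 6.75. Their differences ran from 0.01 to 0.04, and 0 of the 5 were called in either direction. Another 3 members were listed for the imprinted Dlk1-Dio3 region. Of these, miR-1906 has 2 loci in RefSeq, the first within the span of the long non-coding gene Meg3. miR-1906 fell by 0.41 ± 0.05 (limma adjusted p = 0.00303), from 7.04, 7.03, 7.23, 7.10 and 7.24 in sham to 6.62, 6.77, 6.74, 6.73 and 6.72 in TAB. It was found on all 10 sham arrays and on 7 TAB arrays, and with the 75th percentile its difference did not pass the test. miR-1247 and miR-1247* were not called, with differences of -0.10 ± 0.05 and 0.01 ± 0.28. For miR-1247* the sign of the difference turned from day to day and the 2 arrays of a sample differed most, with an SD of 0.545.

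The hairpin of miR-1306 lies within Dgcr8, whose protein is the partner of Drosha in cutting miRNA hairpins. Both of its arms had lower means in TAB. miR-1306-3p fell by 0.30 ± 0.06 (limma adjusted p = 0.0100) and was found on 10 sham and 6 TAB arrays. It was called under quantile normalization and without scaling, while its difference was 0.0072 with the 75th percentile. miR-1306-5p was at 8.96, 8.72, 8.91, 8.15 and 8.76 in sham and 8.24, 8.29, 8.49, 8.32 and 8.18 in TAB, a difference of -0.39 ± 0.13 that missed the threshold (limma adjusted p = 0.0527). Sham day 14 was again the low sample, and without day 14 the difference was -0.54 (limma adjusted p = 0.00370). Leaving out day 14 also removed calls. It gave 36 lowered members, of which 31 were among those lowered with all days. The lowered calls of miR-1947, miR-1968, miR-1941-3p and miR-1964-5p were among those lost, with limma adjusted p from 0.0591 to 0.101.

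The hairpin of miR-1224 is a mirtron, a short intron that yields its hairpin by splicing without Drosha, and lies within Vwa5b2. The array name miR-1224 gives no arm, so both RefSeq arms are shown for the sequence, from chr16:20604452-20604472 and chr16:20604516-20604536 on the plus strand.
miR-1224-5p: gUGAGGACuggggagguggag
miR-1224-3p: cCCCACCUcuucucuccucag

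The second strand of this mirtron, miR-1224*, was at 9.15, 8.77, 9.13, 8.05 and 8.83 in sham and 8.35, 8.51, 8.51, 8.58 and 8.21 in TAB. Its difference of -0.36 ± 0.20 did not pass the test (limma adjusted p = 0.196), with sham day 14 at -0.92 from the mean of the other sham samples. Without day 14 the difference was -0.58 (limma adjusted p = 0.00771). As stated above, leaving out day 14 also lost lowered calls of other members. Of the 3 members listed for their origin in other small RNA genes, miR-1839-5p and miR-1839-3p of a small Cajal body RNA and miR-1983 of a tRNA, differences lay between -0.23 and 0.05 and 0 were called. miR-1843b-5p, which was not on that list but lies within Scarna3a, was lowered and is described with its hairpin.

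For 20 hairpins both arms were members and at least 1 arm was found on 10 or more arrays. Both arms are cut from 1 precursor and were measured on the same arrays, so a factor common to all probes of an array cancels in their difference, apart from the background under dim probes. In 14 of the 20 hairpins 1 arm was lowered and the other was not called, in 1 (miR-1941) both arms were lowered, and in 5 neither was called. The difference between the arms was then tested itself, with an exact two-sided sign-flip permutation test over the 5 days, which cannot go below p = 0.0625 and so cannot reach 0.05. In 9 of the 14 hairpins the arms lay apart the same way on all 5 days (exact p = 0.0625, adjusted 0.114 over 20 hairpins), and in 8 of these also without scaling. In 3 hairpins, miR-1894, miR-1843b and miR-1943, both arms were in addition found on all 20 arrays. The 14 hairpins were picked by calls from the same 5 days, which favours arms that lie apart, so these counts are descriptions. Of the 5 hairpins with neither arm called, 1 had its arms apart the same way on all 5 days.

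**Figure D4:**
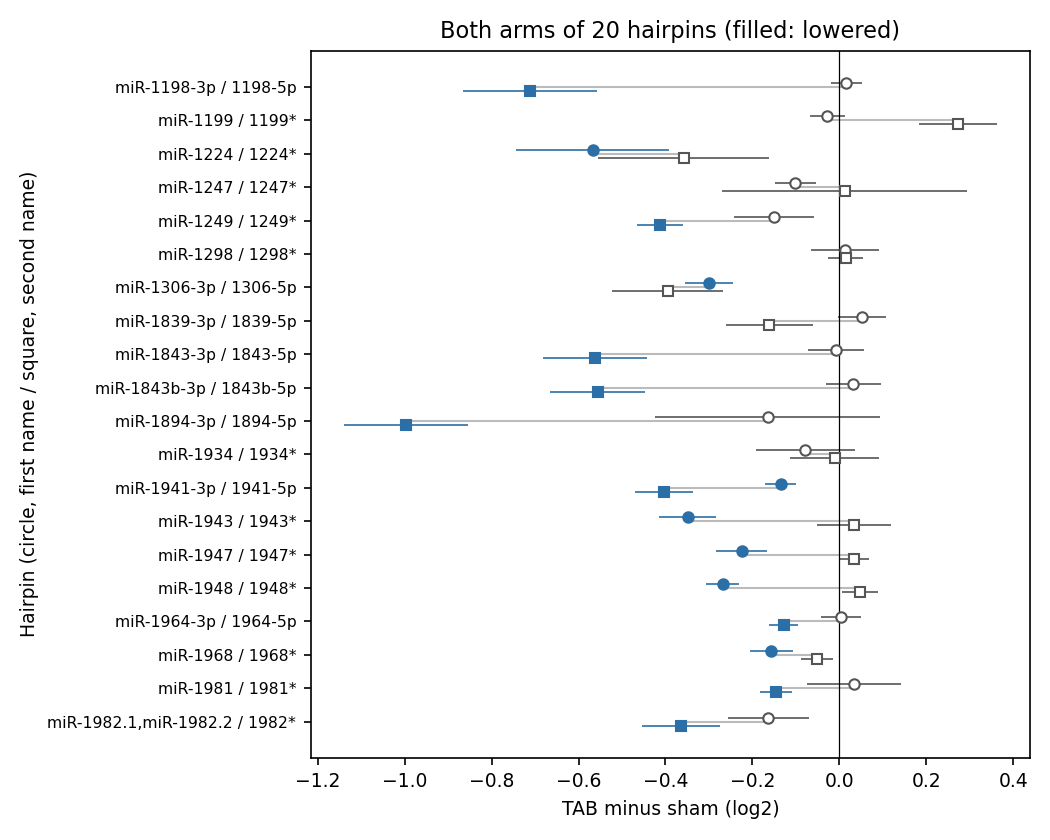
TAB minus sham difference (log2, horizontal axis) of both arms of 20 hairpins (vertical axis), circles for the first name and squares for the second, with bars of 1 SE from limma and filled symbols for lowered members. The 2 arms of miR-1894 stand at -0.16 and -0.998, and those of miR-1843b at 0.03 and -0.56.

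The arms of miR-1894 were equally bright, with mean levels of 11.46 and 11.45, and lie on opposite sides of 1 hairpin, the 3p arm at chr17:35917938-35917959 on the plus strand.
miR-1894-3p: gCAAGGGAgagggugaagggag

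miR-1894-3p was at 11.37, 11.61, 11.56, 11.41 and 11.77 in sham and 11.01, 11.63, 10.86, 12.37 and 11.02 in TAB. TAB day 14 was the highest of its 10 samples, the groups overlapped, and the difference of -0.16 ± 0.26 did not pass the test (limma adjusted p = 0.639). Against the 5p arm, the 3p arm stood higher relative to sham by 0.83 ± 0.49 (SD, n = 5 days), from 0.18 to 1.33 on single days, and by 0.77 ± 0.48 without scaling.

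miR-1843b-5p was at 8.25, 8.01, 8.46, 8.48 and 7.92 in sham and 7.74, 7.49, 7.74, 7.59 and 7.79 in TAB, and fell by 0.56 ± 0.11 (limma adjusted p = 0.0115). Its 3p arm was at 7.04, 6.93, 7.25, 7.01 and 6.87 in sham and 6.97, 6.94, 7.17, 7.05 and 7.16 in TAB, a difference of 0.03 ± 0.06. The 3p arm was dimmer (mean level 7.04, against 7.95 for the 5p arm), and the part of compression near background in the contrast was not tested. The arms lay 0.59 ± 0.21 apart (SD, n = 5 days), and 0.73 ± 0.21 without scaling. The probe named miR-1843-5p gave nearly the same levels, with a fall of 0.56 ± 0.12 (limma adjusted p = 0.0150, up to 0.0529 without day 5 or day 7). In RefSeq the mature 5p strands of miR-1843a and miR-1843b share a run of 20 bases, so the array may not tell these probes apart and they are not independent evidence. In miR-1943 the named strand fell by 0.35 ± 0.07 (limma adjusted p = 0.0103) and miR-1943* had a difference of 0.03 ± 0.08, and the named strand minus the other was -0.38 ± 0.14 (SD, n = 5 days), or -0.35 ± 0.19 without scaling. The call of miR-1943 was lost without replicate 1 and in a fit with no day term, with adjusted p up to 0.0859.

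In several other hairpins the opposite arm was near the intensity of empty spots, where a difference is compressed. miR-1198-3p was found on 1 of the 20 arrays, at a mean level of 6.32 against 9.22 for miR-1198-5p, so the contrast between these arms is not given as a value. miR-1948 was at 6.62, 6.57, 6.69, 6.61 and 6.60 in sham and 6.27, 6.34, 6.38, 6.35 and 6.42 in TAB, found on 10 sham arrays and 1 TAB array, while miR-1948* was found on 2 arrays in all. With the 75th percentile the differences of the lowered strands miR-1948, miR-1947, miR-1968, miR-1981*, miR-1941-3p and miR-1964-5p lay above 0, between 0.034 and 0.36, so their direction depended on the scaling. miR-1249* fell by 0.41 ± 0.05 (limma adjusted p = 0.00389, called under every alternative), and miR-1249 had a difference of -0.15 ± 0.09, with the arms apart the same way on 4 days (exact p = 0.125). miR-1982* fell by 0.36 ± 0.09 (limma adjusted p = 0.0235), a call lost without day 5, day 7, day 28 or replicate 2.

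Presence calls moved with the surgery as well. The members found on an array numbered 62 to 78 on TAB and 73 to 90 on sham arrays, 36 members were found on more sham than TAB arrays, and 1 on more TAB than sham arrays. Over all 928 miRNAs, 490 to 648 were found on TAB and 570 to 698 on sham arrays. How many of all miRNAs were found on more arrays of 1 surgery is not given here. Among the lowered members, 5 were found on all sham arrays and on fewer than 10 TAB arrays, namely miR-1906, miR-1306-3p, miR-1948, miR-1965 and miR-1968. Another 4 lowered members, miR-1955-5p, miR-1981*, miR-1933-5p and miR-1964-5p, were found on no TAB array and on at most 4 sham arrays, so that both groups lay near background. They passed the test with small log2 differences, which are not read as folds. The part of the dimmer TAB arrays in these presence calls was not tested.

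By day, the median log2 ratio of the members was -0.07, -0.08, -0.09, -0.13 and -0.20 on days 3, 5, 7, 14 and 28, and 67, 68, 73, 70 and 81 of the 106 members lay below 0. Over all miRNAs the daily medians were 0.004, -0.017, -0.01, 0.002 and -0.027, and the daily counts below 0 are not given here. The fold rule of the study's methods, a log2 ratio beyond 2 SD of all ratios of that day, was met by 14 members on at least 1 day, 13.2% of them against 15.4% of all miRNAs. Of these, 9 were lower (8.49%, against 7.00%) and 5 higher (4.72%, against 8.41%). miR-1896 met the rule on all 5 days, miR-1894-5p and miR-1187 on 3 days, and miR-1952, miR-1192 and miR-1198-5p on 2 days. On the higher side, miR-2861 met it on day 3, miR-1949 on day 28, and miR-1894-3p, miR-1247* and miR-2136 on day 14. This rule has no replicate error, and the threshold itself moved between 0.70 on day 14 and 1.03 on day 28. The rule was applied here to values quantile-normalized over all arrays, unlike those of the study. With quantile normalization within each surgery, where the median difference over all miRNAs was -0.25, 35 members met it. The share of all miRNAs that met it in that setting is not given here.

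**Figure D5:**
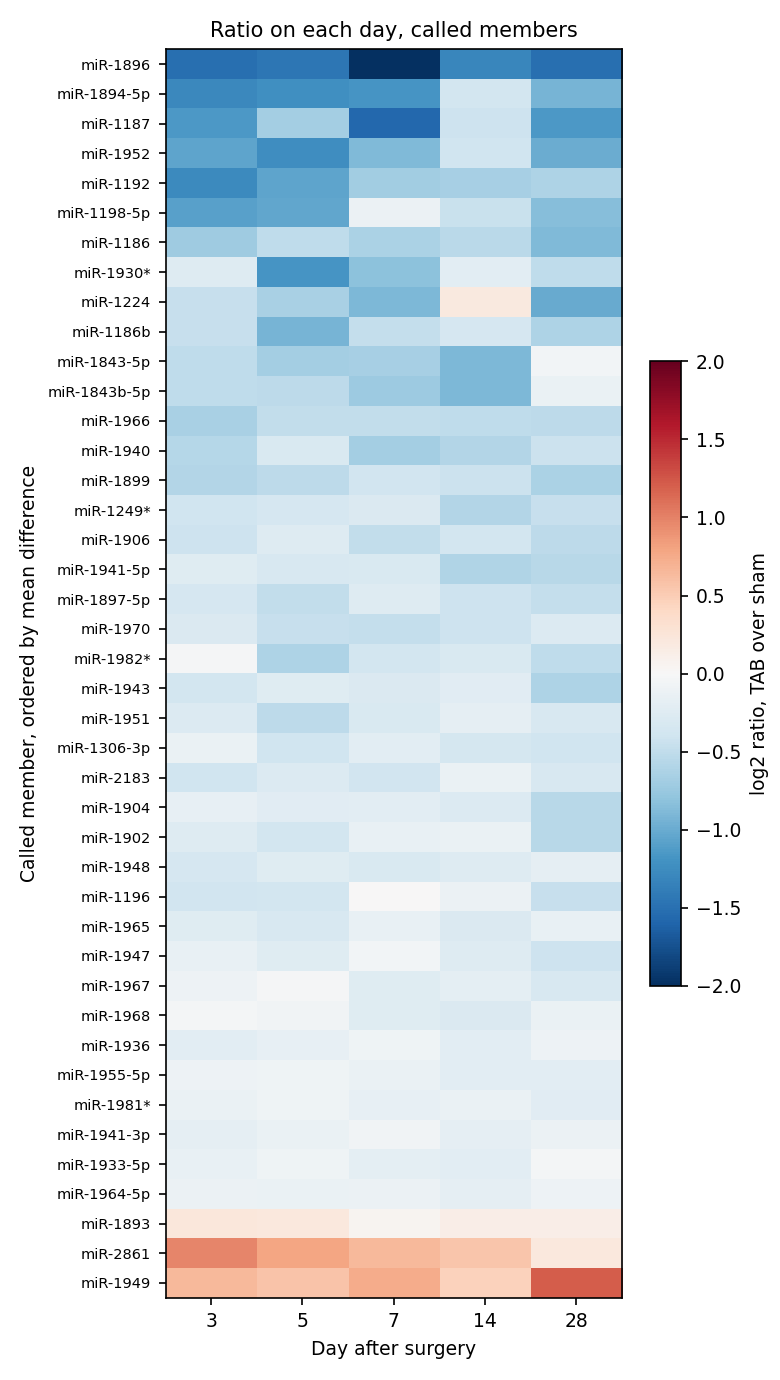
Log2 ratio of TAB over sham on each day (horizontal axis) for the 42 called members (vertical axis, ordered by mean difference). Blue is lower and red higher in TAB, on the colour scale beside the map. miR-1896 at the top runs from -1.30 to -2.04, and 37 of the 39 lowered members are below 0 on all 5 days.

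The ratio of late days (14 and 28) was compared with that of early days (3, 5 and 7) in limma, and 0 of the 928 miRNAs passed after adjustment. By limma's p before adjustment, at the 0.05 level, 10 members stood out (9.43%, against 6.25% of all miRNAs). Of these, 9 had lower late ratios (8.49%, against 3.99% of all miRNAs) and 1 a higher late ratio (0.943%, against 2.26%). miR-1935, the next brightest member after the 3 named above, had ratios of 0.35, 0.55, 0.19, -0.30 and -0.69 from day 3 to day 28, a late minus early difference of -0.86 ± 0.17 (limma adjusted p = 0.699). Its sham level was highest on day 28, at 13.85, and its TAB level highest on day 5, at 13.67. miR-1941-5p fell further below sham late, with a mean ratio of -0.29 early and -0.58 late (limma adjusted p = 0.699). In the other direction, miR-1894-5p moved from -1.23 early to -0.65 late (limma adjusted p = 0.699), and miR-1927, not among the 10, from -0.24 to -0.01. These 4 values did not pass the adjusted threshold and are descriptions.

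Sequence features were compared over the 57 members with a RefSeq entry, as descriptions without a test. Members with at least 60% G and C numbered 18, of which 3 were lowered and 1 raised (median difference 0.02), while of 39 members with less, 18 were lowered and 0 raised (median -0.14). Over all 280 array miRNAs with an exact RefSeq name, 17 of 80 with at least 60% were lowered and 9 raised (median -0.001), and 59 of 200 with less were lowered and 24 raised (median -0.08). Pearson's r between the share of G and C and the difference was 0.26 over the 57 members (Spearman's rho 0.17) and 0.06 over the 280. It was 0.51 over the 32 members found on all arrays, and no value for all miRNAs found on all arrays is given beside it. In each set all points share the same 20 arrays, with probes of different composition. The motif UGUGUG stood in 1 member, miR-1187, and in 9 of the 280 miRNAs. The median difference of these 9 was -0.93, and 8 of them were lowered. Of the 271 without the motif, 68 were lowered (median -0.04). Whether probes that share this repeat read the same RNAs was not tested. A run of 4 G stood in 5 of the 57 members, 2 lowered and 1 raised, and in 27 of the 280, 7 lowered and 3 raised.

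A single member, miR-1961, carries the seed of the let-7 family, one of the most abundant miRNA families of adult tissue, and is shown beside let-7g-5p with the shared seed in capitals.
miR-1961: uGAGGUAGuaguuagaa
let-7g-5p: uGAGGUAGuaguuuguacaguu

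miR-1961 and let-7g-5p share their first 13 bases. miR-1961 was found on 0 of the 20 arrays, with a mean level of 6.30, and its difference of 0.10 did not pass the test (limma adjusted p = 0.0724), so no signal above background was read by this probe. Altogether 9 of the 57 matched members share a seed with a mature miRNA that is no member.

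Markers of the tissue and of other cells were read on the same samples. All 6 heart muscle miRNAs were found on all 20 arrays, with a summed linear level of 52900 to 81800 in TAB and 54400 to 89600 in sham, and 2 of the 6 were raised. Of 6 blood cell miRNAs 5 were raised, with sums of 1070 to 1310 in TAB and 686 to 907 in sham. Of these 6, 3 were found on all 20 arrays and none was absent from every array. Over all 928 miRNAs 19.3% were raised, and the marker calls are given with quantile normalization over all arrays only. Of 4 vessel miRNAs 1 was raised, and of 6 markers of liver, brain, epithelium and endocrine cells 4 were tested and 0 called. In such whole-tissue samples, fewer cells of a type and less RNA per cell cannot be told apart, and the part of blood cells in the members' differences was not tested.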

How the data were processed

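The authors deposited raw Cy5 intensities of every spot, without background subtraction, with GenePix flags per spot, and a processed intensity per miRNA. According to the methods, miRNAs with negative flags were removed, repeated spots combined by their median and technical replicates quantile-normalized. The methods also describe a quantile step between samples, worked out for each condition. The alternative of quantile normalization within each surgery resembles that step. In the processed table every array has the same 75th percentile, so it served as an alternative. The array names follow miRBase, and a genome build is not given in the sources used here. Here the median of 3 spots was taken from the raw table for 1086 mouse probes, 158 probes with only negative flags were removed, and log2 values were quantile-normalized over 20 arrays with limma 3.58.1 in R 4.3.3. Arrays of 1 sample were averaged. TAB was compared with sham by lmFit and eBayes in a model of surgery plus day (4 residual degrees of freedom; 3 for late minus early), two-sided, with Benjamini-Hochberg adjustment over 928 miRNAs and a threshold of 0.05. The error is the variation of the difference between days, and its precision is limited by the 5 days with 1 sample per surgery each. The fit was tested on simulated data. Sequences came from RefSeq (GRCm38.p6) by exact name. Members named are those listed in the choice of members, the largest changes, the extremes of each day, the brightest, the smallest late p-values, both arms of a hairpin and the origin lists. Members named outside this rule (miR-1965, miR-1955-5p, miR-1933-5p, miR-2136, miR-1961 and the dropped probes) were chosen after their values were seen. Of the hairpins, miR-1199 and miR-1934 are given only in the counts. The members, lists and features were chosen with earlier results of these data known. The alternatives were 18 other settings of scaling, background correction, filters, spot averaging, fit and left-out samples.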

Additional observations from a re-analysis of the deposited data

Results flagged for a closer look

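Within the 5 samples of 1 surgery, 5 of 112 member values tested had a highest or lowest sample far from the nearest other, about the share that chance gives (1 in 20). miR-1198-5p in TAB had a level of 9.35 on day 7, above the next highest TAB sample at 8.79. miR-1983, of a tRNA gene, had 12.10 in TAB on day 7, above 11.65. miR-1195 had 13.40 in TAB on day 7, below 13.68. miR-1948* had 6.50 in TAB on day 28, above 6.45, both near the intensity of empty spots. miR-2137 had 13.91 in sham on day 5, above 13.40. In 3 of the 5 cases the sample was TAB day 7.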

How the results depend on the processing

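Scaling between arrays moved the counts most. Raised and lowered members numbered 44 and 24 with the 75th percentile, with members' medians of 0.13, and 44 and 24 in the deposited processed intensities (median 0.14). In the latter, 41.5% of the members were raised, against 63.8% of all miRNAs, and 22.6% lowered, against 12.2%. Without scaling the raised and lowered members numbered 0 and 82 (median -0.52), and with quantile normalization within each surgery 0 and 96 (median -0.52). Lowered were 77.4% of the members without scaling, against 53.9% of all miRNAs, and 90.6% within each surgery, against 68.3%. The 2-SD rule was met by 36 and 35 members under the last pair. Shares of all miRNAs under this rule are not given for the settings of this section, so its counts are not read as particular to the members. With miRNAs found on at least 10 arrays, 9 members met it, and the members' median was -0.17. The mean of the spots raised 5 members (4.72%, against 19.9% of all miRNAs), and a fit with no day term 7 (6.6%, against 23.5%). Leaving out 1 day or 1 replicate gave 2 to 4 raised members, 25 to 36 lowered members (fewest without day 28) and 9 to 18 members beyond 2 SD (fewest without day 14). In these settings 1.89% to 3.77% of the members were raised, against 11.9% to 18.2% of all miRNAs. Lowered were 23.6% to 34% of the members, against 12.4% to 22.2% of all miRNAs. Each of these settings gave 0 members for late minus early and medians of -0.12 to -0.09.

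Samples of different surgery with the same replicate number correlated in their deviations at r of -0.04 to 0.18 over the 5 days, so the number does not pair them. With the 20 arrays as samples, the replicate block gave 8 raised, 47 lowered and 14 late minus early members, and the fit without a block gave 8, 47 and 14 as well. In the fit without a block, 7.55% of the members were raised, against 28.3% of all miRNAs, and 44.3% lowered, against 31.7%. The share of all miRNAs called for late minus early is not given for the fits on 20 arrays. In the late minus early fit on 20 arrays the error is the spread between technical replicates. In the surgery fit on 20 arrays that spread is pooled with the variation of the difference between days.

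Of 28 named and called members, 9 kept their call in all 18 settings and 19 kept their direction. The cause of the changes was not tested. TAB minus sham differences turned sign as follows. With the 75th percentile they were 0.0072 for miR-1306-3p, 0.17 for miR-1948, 0.034 for miR-1947, 0.13 for the probe of miR-1982.1 and miR-1982.2, 0.078 for miR-1839-5p, 0.19 for miR-1968, 0.29 for miR-1927, 0.35 for miR-1981*, 0.30 for miR-1941-3p, 0.36 for miR-1964-5p, 0.15 for miR-1247, 0.47 for miR-1968*, 0.073 for miR-1195, 0.29 for miR-1843-3p and -0.085 for miR-1943*. In the deposited processed intensities they were 0.0063 for miR-1306-3p, 0.17 for miR-1948, 0.0036 for miR-1983, 0.031 for miR-1947, 0.0044 for miR-1894-3p, 0.13 for the probe of miR-1982.1 and miR-1982.2, 0.073 for miR-1839-5p, 0.19 for miR-1968, 0.28 for miR-1927, 0.35 for miR-1981*, 0.30 for miR-1941-3p, 0.37 for miR-1964-5p, 0.14 for miR-1247, 0.46 for miR-1968*, 0.081 for miR-1195, 0.29 for miR-1843-3p and -0.096 for miR-1943*. Without scaling they were -0.26 for miR-1964-3p, -0.52 for miR-1247*, -0.31 for miR-1298, -0.13 for miR-1298*, -0.13 for miR-1198-3p, -0.16 for miR-1912, -0.55 for miR-1935, -0.11 for miR-1264-3p, -0.35 for miR-1843b-3p, -0.16 for miR-1947*, -0.73 for miR-1943*, -0.39 for miR-1981, -0.14 for miR-1912*, -0.13 for miR-1948*, -0.10 for miR-1839-3p, -0.47 for miR-2137, -0.19 for miR-1893 and -0.043 for miR-2861. With quantile normalization within each surgery they were -0.25 for miR-1964-3p, -0.54 for miR-1247*, -0.30 for miR-1298, -0.12 for miR-1298*, -0.13 for miR-1198-3p, -0.15 for miR-1912, -0.52 for miR-1935, -0.11 for miR-1264-3p, -0.35 for miR-1843b-3p, -0.15 for miR-1947*, -0.72 for miR-1943*, -0.39 for miR-1981, -0.14 for miR-1912*, -0.13 for miR-1948*, -0.10 for miR-1839-3p, -0.46 for miR-2137, -0.18 for miR-1893 and -0.061 for miR-2861. The mean of the spots gave -0.0003 for miR-1964-3p and -0.029 for miR-1935, and no flag filter -0.0016 for miR-1298*. Leaving out 1 day or 1 replicate gave ranges of -0.16 to 0.087 for miR-1195, -0.017 to 0.050 for miR-1198-3p, -0.27 to 0.20 for miR-1247*, -0.015 to 0.064 for miR-1264-3p, -0.058 to 0.069 for miR-1298, -0.0067 to 0.042 for miR-1298*, -0.070 to 0.034 for miR-1843-3p, -0.031 to 0.074 for miR-1843b-3p, -0.015 to 0.063 for miR-1912, -0.26 to 0.27 for miR-1935, -0.040 to 0.10 for miR-1943*, -0.016 to 0.028 for miR-1964-3p, -0.12 to 0.020 for miR-1968* and -0.050 to 0.13 for miR-1981.

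Differences are compressed in probes near the intensity of empty spots, and 44 of the 106 members were not found on all arrays. Each day holds 1 sample per surgery, so no day was tested on its own.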
